A study of Mus musculus with 12 samples.

Results

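The genes described here are 10 of prostaglandin synthesis, breakdown and reception in the distal colon of mice, and all 10 of 10 were measured well enough to be tested. The genes were taken by symbol, and every non-control probe annotated to them was read, which gave 13 probes of the 41174 non-control probes on the array. Of these, 12 probes passed the filter on dim signals, and the fit across 18947 genes used 1 probe for each gene, 10 of them here. Ptgs2, Hpgd and Ptger3 each had 2 probes, and the others had 1.

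The study put female BALB/c mice, 5 to 7 weeks old, into 4 groups and hybridised 3 one-colour arrays for each, with colon tissue taken on day 100. The AOM/DSS group received azoxymethane (AOM), a colon carcinogen, once at 12.5 mg/kg on day 1, then dextran sulfate sodium (DSS), a polymer that injures the colon lining, in its drinking water for 5 days of each 21-day cycle, over 3 cycles from day 5. The AOM group received 6 weekly injections of 10 mg/kg and no DSS. The DSS group received the same 3 DSS cycles and no AOM, and the control group neither agent. AOM/DSS samples were clipped neoplasms kept in RNA storage solution, whereas the other tissues were scraped with a slide into Trizol, so treatment, tissue and handling cannot be told apart in any AOM/DSS comparison. Nothing in the labels says whether the 3 replicates of a group were separate mice, and the p-values therefore reflect the spread among these arrays alone, part or all of which may be technical.

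Cyclooxygenases turn arachidonate into an unstable intermediate, which terminal synthases convert into prostaglandin E2, prostacyclin and other prostanoids. A membrane carrier takes prostaglandins into cells, where a dehydrogenase inactivates them, and receptors at the cell surface pass the signal on. In the colon this pathway is known for its part in mucosal repair, inflammation and tumour growth, and for being the target of aspirin-like drugs.

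Signals are given as log2 values relative to the 75th percentile of each array, so that a value of 0 is the level of that percentile. They can be compared between arrays for 1 probe but not between probes. Before scaling, that percentile lay between 1115 and 1185 intensity units on the 3 AOM/DSS arrays and between 393 and 694 on the other 9. AOM/DSS arrays had 62.6% to 66.2% of probes well above background, and the other 9 arrays 52.0% to 59.3%. All 10 markers of epithelium were well above background on all 12 arrays. Control replicates 1 and 2 lay below the other 10 arrays in endothelial and fibroblast markers. The mean log2 signal over 8 endothelial markers ran from -1.53 to -1.32 in AOM/DSS, from -1.51 to -1.05 in AOM and from -1.94 to -0.97 in DSS, and was -3.89, -3.76 and -1.38 on control replicates 1, 2 and 3. The 8 fibroblast markers likewise averaged 2.21 to 3.1 on the 9 arrays of the treated groups, and 0.72, -0.48 and 3.02 on those 3 controls. In 8 smooth muscle markers only control replicate 2 was lowest, at -1.14, while control replicate 1, at 0.16, lay above the AOM/DSS arrays, which read -0.69 to -0.30, and control replicate 3 read 1.80. Transcripts of exocrine pancreas, summed as linear levels over 10 markers, reached 794 on control replicate 3 and 121 on DSS replicate 1, against 2.61 to 38.4 on the other 10 arrays. For the 10 genes, results that rest on these arrays are mostly given with and without them. Values of other genes are given with all arrays unless stated, and may depend on them. In bulk tissue, fewer cells of a type and less RNA per cell cannot be told apart.

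In AOM/DSS neoplasms against control, 2 of the 5 synthesis genes rose, the inducible cyclooxygenase Ptgs2 and the prostaglandin E synthase Ptges. The 3 genes that fell, each by 15.6-fold or more, were Hpgd (15-hydroxyprostaglandin dehydrogenase, the inactivating enzyme), Slco2a1 (the prostaglandin uptake carrier) and Ptger3 (the EP3 receptor for prostaglandin E2). The remaining 5, which include 3 synthesis genes and 2 receptors, did not pass the test. That made 5 of 10 called at a limma adjusted p under 0.05, where 34.7% of all genes tested were called in this comparison, 17.3% higher and 17.5% lower. The groups did not overlap for 6 of the 10, against 52.4% of all genes. The median log2 difference was 0.58 over the 10 genes and 0.03 over all genes tested.

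In AOM tissue against control, 5 of 10 were again called, with 32.4% of all genes called, 14.8% higher and 17.6% lower, and 5 had no overlap, against 49.1% of all genes. Ptgs1 (the constitutive cyclooxygenase) and Ptges were higher, and Hpgd, Slco2a1 and Ptger3 were lower. In DSS tissue against control none of the 10 was called in the limma test, although Ptgs1, Ptges and Ptger3 reached an unadjusted p under 0.05; only 0.327% of all genes were called, 0.164% in each direction. The groups did not overlap for 2 of the 10 there, against 18.4% of all genes. AOM/DSS against AOM gave 4 called genes, all lower (Ptges2, Hpgd, Slco2a1 and Ptger3), with 37.2% of all genes called, 19.5% higher and 17.7% lower. These 4 were also the ones without overlap, against 59.4% of all genes. AOM/DSS against DSS gave 3, all lower (Hpgd, Slco2a1 and Ptger3), with 35.9% of all genes called, 17.7% higher and 18.3% lower, and 6 did not overlap, against 48.9% of all genes. DSS against AOM gave none, with 0 of the 10 at an unadjusted p under 0.05 and 0.0106% of all genes called; 1 of the 10 did not overlap, against 18.5% of all genes. The comparisons with control share the same 3 control arrays, so their similarity is not independent evidence.

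**Figure D1:**
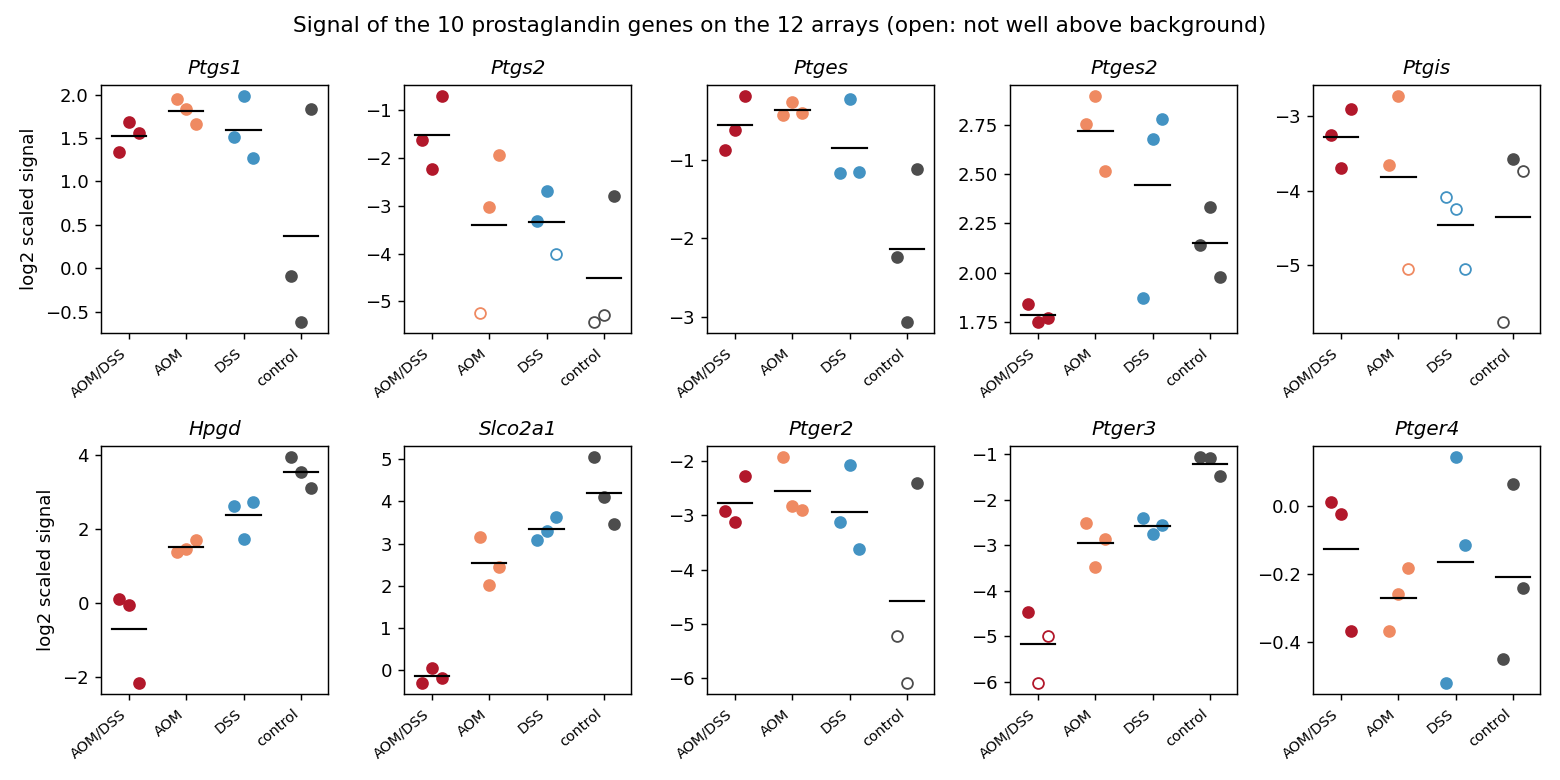
Log2 signal relative to each array's 75th percentile (vertical axis) of the 10 genes, 1 panel each, in the AOM/DSS, AOM, DSS and control groups (3 arrays each). Points are arrays, open where the probe was not well above background, and lines are group means. Hpgd, Slco2a1 and Ptger3 are lowest in AOM/DSS and highest in control, whereas 2 of the 3 control points lie far below the third for Ptgs1, Ptgs2 and Ptger2.

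The stretch around the transcription start was available from RefSeq (build GRCm38.p6) for 9 of the 10 genes, all but Ptgis. The windows of 4 are shown, because Ptgs2 is the synthesis gene with the largest rise in the neoplasms and Hpgd, Slco2a1 and Ptger3 are the genes that fell. Each window holds 250 bases before and 50 bases from the start onward, read 5′ to 3′ on the gene's own strand, which is the plus strand for these 4. Capitals mark matches to the motifs searched.
Ptgs2, chr1:150099781-150100080: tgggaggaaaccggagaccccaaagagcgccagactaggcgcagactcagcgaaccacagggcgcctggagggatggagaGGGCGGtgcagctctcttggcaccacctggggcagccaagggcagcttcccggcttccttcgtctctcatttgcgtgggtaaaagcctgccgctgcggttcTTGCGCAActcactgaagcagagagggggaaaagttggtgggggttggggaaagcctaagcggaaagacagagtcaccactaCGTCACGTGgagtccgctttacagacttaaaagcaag
Hpgd, chr8:56294302-56294601: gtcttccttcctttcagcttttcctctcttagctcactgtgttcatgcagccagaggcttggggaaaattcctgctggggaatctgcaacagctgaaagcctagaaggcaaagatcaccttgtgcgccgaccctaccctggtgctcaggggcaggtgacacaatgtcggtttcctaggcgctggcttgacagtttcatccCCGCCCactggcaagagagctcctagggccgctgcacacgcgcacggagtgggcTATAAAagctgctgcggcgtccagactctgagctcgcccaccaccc
Slco2a1, chr9:103008237-103008536: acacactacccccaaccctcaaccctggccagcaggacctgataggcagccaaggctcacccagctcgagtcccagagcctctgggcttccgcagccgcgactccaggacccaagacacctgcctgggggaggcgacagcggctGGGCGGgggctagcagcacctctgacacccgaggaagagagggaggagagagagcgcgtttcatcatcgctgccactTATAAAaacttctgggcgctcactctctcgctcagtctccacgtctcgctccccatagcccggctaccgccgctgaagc
Ptger3, chr3:157566626-157566925: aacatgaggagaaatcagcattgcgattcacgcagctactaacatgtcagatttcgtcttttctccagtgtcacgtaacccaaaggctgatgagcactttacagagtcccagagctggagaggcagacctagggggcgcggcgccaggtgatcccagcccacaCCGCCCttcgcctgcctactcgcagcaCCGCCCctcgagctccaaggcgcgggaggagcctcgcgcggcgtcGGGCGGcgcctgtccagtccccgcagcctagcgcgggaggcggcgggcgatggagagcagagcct
The search covered 5 motifs on both strands: a cyclic AMP response half-site (TGACG), an E-box (CACGTG), a C/EBP motif (TTNNGCAA), a TATA box (TATAAA) and a GC box (GGGCGG). Positions give the first base of a match, with the start base as 1. The Ptgs2 window held the half-site on the minus strand at position 14, overlapping an E-box at position 17, together with a C/EBP motif at position -69 and a GC box at position -170. It was the only one of the 9 windows with the half-site, which 20.8% of all 32851 mouse windows hold, whereas the E-box is in 7.15% and the C/EBP motif in 10.8%. A TATA box was present in the windows of Slco2a1, at position -29, and Hpgd, at position 5, and in 13.6% of all windows. The GC box was in 6 of the 9 windows, including all 4 shown, and in 35.7% of all windows. These matches describe letters in a window, and no binding was measured.

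Ptgs2 encodes the cyclooxygenase that inflammatory and growth signals induce. Its 10-spot probe read -1.62, -2.22 and -0.70 on the AOM/DSS arrays, -5.25, -3.02 and -1.94 on the AOM arrays, -3.32, -2.70 and -4.0 on the DSS arrays, and -5.44, -5.29 and -2.80 on the control arrays. All 3 AOM/DSS arrays lay above all 3 DSS and all 3 control arrays, and they overlapped the AOM arrays through AOM replicate 3. The probe was well above background on 3, 2, 2 and 1 of the 3 arrays in AOM/DSS, AOM, DSS and control, so most control values only bound the level. It passed the filter only through AOM/DSS, the group where it was highest, so its entry into the test was not independent of that level. Against control the AOM/DSS difference was 2.99 ± 0.88 (SE, n = 3 each) on the log2 scale, or 7.97-fold, with a limma adjusted p of 0.0239. Against AOM it was 1.89 (95% interval -0.06 to 3.84, limma adjusted p = 0.111) and against DSS 1.83 (-0.12 to 3.78, limma adjusted p = 0.124). AOM and DSS tissue differed from control by 1.10 and 1.17 (limma adjusted p = 0.345 and 0.447). Markers of neutrophils and macrophages were also higher in AOM/DSS than in control. Of the neutrophil markers 7 of 7 tested were called higher, with a median difference of 4.44, or 3.60 without control replicates 1 and 2. Of the macrophage markers 4 of 6 were called higher, with a median of 1.85, or 0.54 without those controls. Of the mast cell markers 1 of 7 was called higher, with a median of 0.30. By comparison, 17.3% of all genes were called higher. In AOM against control, where Ptgs2 was not called, 6 of 7 neutrophil and 5 of 6 macrophage markers were higher. There 14.8% of all genes were called higher. The part of these cells in the Ptgs2 difference was not tested.

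The second Ptgs2 probe likewise passed the filter only through AOM/DSS, so it is no independent support for the first. On it all 3 AOM/DSS arrays lay above all 9 others. It read -2.44, -2.68 and -1.48 in AOM/DSS, -4.98, -3.86 and -2.81 in AOM, -5.26, -3.04 and -4.67 in DSS, and -5.79, -5.05 and -4.17 in control. No control array was well above background for it, so the AOM/DSS level was at least 3.33-fold that of control; when every probe was fitted as its own feature, limma gave an adjusted p of 0.00963. It passed the test against DSS as well (2.12, limma adjusted p = 0.0341), which the first probe did not. The rise of the first probe depended on the control arrays and on how background was removed. Without control replicates 1 and 2 the difference was 1.28 (limma adjusted p = 0.52), and with normexp background correction, which models the background and adds an offset of 50, it was 0.05 (limma adjusted p = 0.96). With control replicate 3 and DSS replicate 1 left out instead it was 3.85 (limma adjusted p = 0.0082). Within the only slide that held both groups, AOM/DSS replicate 3 exceeded the 3 controls by 3.80. The block for slide, which rests on that array, gave a limma adjusted p of 0.064. Leaving out AOM/DSS replicate 1 or 3 or control replicate 1 or 2 singly also ended the call (2.53 to 3.05, limma adjusted p = 0.058 to 0.095).

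Ptgs1, the cyclooxygenase that many tissues express constantly, split the control group. It read 1.33, 1.68 and 1.56 on the AOM/DSS arrays, 1.95, 1.83 and 1.66 on the AOM arrays, 1.51, 1.98 and 1.27 on the DSS arrays, and -0.09, -0.62 and 1.83 on the control arrays. The 9 treated arrays lay within 0.71 of each other on the log2 scale, and control replicate 3 lay among them, while control replicates 1 and 2 were low. The AOM difference from control was 1.44 ± 0.50 (SE, n = 3 each), 2.71-fold, at a limma adjusted p of 0.0496, whereas AOM/DSS differed by 1.15 (limma adjusted p = 0.10) and DSS by 1.21 (limma adjusted p = 0.210). Without control replicates 1 and 2 the AOM difference was -0.02 (limma adjusted p = 0.98). Without control replicate 3 all 3 treated groups exceeded control, by 1.88 in AOM/DSS, 2.17 in AOM and 1.94 in DSS, each past the threshold. The AOM call was lost when any array other than control replicate 3 was left out, with limma adjusted p between 0.055 and 0.17.

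Ptges encodes the inducible, membrane-bound prostaglandin E synthase that works downstream of Ptgs2. It read -0.87, -0.63 and -0.19 in AOM/DSS, -0.43, -0.27 and -0.40 in AOM, -1.17, -0.23 and -1.16 in DSS, and -2.24, -3.06 and -1.12 in control. Every AOM/DSS and AOM array lay above every control array, and control replicate 3 lay among the DSS arrays. The difference from control was 1.58 ± 0.44 in AOM/DSS (2.98-fold, limma adjusted p = 0.0189) and 1.77 ± 0.44 in AOM (3.41-fold, limma adjusted p = 0.0168; SE, n = 3 each). In DSS it was 1.29 (limma adjusted p = 0.169). Without control replicate 3 the differences were 2.09 in AOM/DSS, 2.28 in AOM and 1.80 in DSS, all 3 past the threshold (limma adjusted p = 0.0019, 0.003 and 0.016), and with DSS replicate 1 left out as well that in DSS was 1.96 (limma adjusted p = 0.0085). AOM/DSS and AOM differed by -0.20 (95% interval -1.17 to 0.78). Without control replicates 1 and 2 the differences from control were 0.55 in AOM/DSS, 0.75 in AOM and 0.27 in DSS (limma adjusted p = 0.47, 0.32 and 0.85), and with normexp they were 0.41 in AOM/DSS and 0.59 in AOM (limma adjusted p = 0.41 and 0.23). The block for slide gave 1.95 in AOM/DSS (limma adjusted p = 0.095) and 2.34 in AOM (limma adjusted p = 0.28). The AOM/DSS call was also lost without AOM/DSS replicate 3, control replicate 1 or control replicate 2 (limma adjusted p = 0.061 to 0.066), and the AOM call without AOM replicate 2, control replicate 1 or control replicate 2 (0.053 to 0.058).

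The low readings of Ptgs1, Ptges and Ptger2 on control replicates 1 and 2 fell on the same arrays as the low endothelial, fibroblast and macrophage markers. Over the 12 arrays Ptgs1 correlated with Ptger2 at r = 0.967 and with Ptges at r = 0.936, and Ptges with Ptger2 at r = 0.931. These correlations are descriptions over arrays of 4 groups that share slides and group differences. Of 8 endothelial markers, 3 rose and none fell in AOM/DSS against control, with a median difference of 1.52, and 4 rose in AOM with a median of 1.65, against 0.03 and -0.01 over all genes. Of all genes tested, 17.3% were called higher in AOM/DSS and 14.8% in AOM. With control replicate 3 as the only control, the endothelial medians were -0.03 and 0.10, against 0.07 and 0.04 over all genes. The part of stromal content in the 3 genes was not tested.

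Ptges2, a second, membrane-associated prostaglandin E synthase, moved in another way. It read 1.84, 1.75 and 1.77 in AOM/DSS, 2.75, 2.89 and 2.51 in AOM, 1.87, 2.68 and 2.78 in DSS, and 2.14, 2.33 and 1.98 in control. The 3 AOM/DSS arrays lay below all other 9 arrays, the nearest being DSS replicate 1. Against AOM the difference was -0.93 ± 0.25 (SE, n = 3 each), or 1.91-fold lower in AOM/DSS, with a limma adjusted p of 0.0179. Against DSS it was -0.66 (limma adjusted p = 0.0609), and -0.94 without DSS replicate 1 (limma adjusted p = 0.0043). Against control it was -0.36 (95% interval -0.92 to 0.19, limma adjusted p = 0.284). The AOM call was lost with normexp (-0.89, limma adjusted p = 0.12), with the slide block (-1.03, limma adjusted p = 0.062) and on leaving out AOM replicate 2 or AOM/DSS replicate 1 or 2 (limma adjusted p = 0.051 to 0.059).

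Ptgis, prostacyclin synthase, was near the detection limit. It read -3.26, -3.70 and -2.90 in AOM/DSS, -3.66, -2.74 and -5.05 in AOM, -4.09, -4.24 and -5.05 in DSS, and -5.76, -3.58 and -3.73 in control. It was well above background on all 3 AOM/DSS arrays, 2 AOM arrays, no DSS array and 1 control array. The probe thus passed the filter only through AOM/DSS. No comparison was called. Against control AOM/DSS differed by 1.07 (95% interval -0.38 to 2.52), and against DSS by 1.17 (limma adjusted p = 0.176). In the main processing the AOM/DSS level came out at least 1.67-fold that of DSS. That fold is no firm bound, because the difference from DSS turned with normexp and with the slide block.

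**Figure D2:**
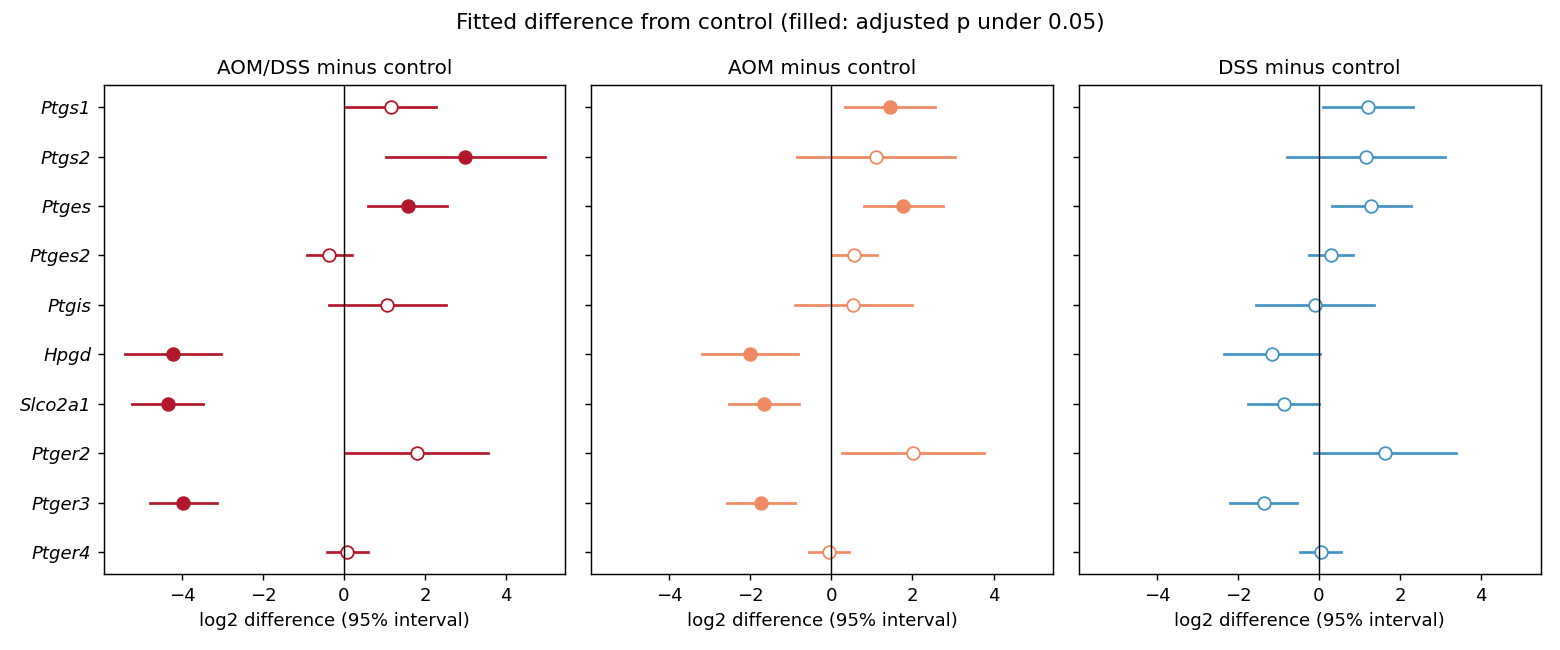
Log2 difference from control of the 10 genes (horizontal axis) with 95% intervals, in 3 panels for AOM/DSS, AOM and DSS (3 arrays a group). Filled points passed a limma adjusted p of 0.05. Hpgd, Slco2a1 and Ptger3 lie near -4 in AOM/DSS and closest to 0 in DSS, where no point is filled.

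Hpgd carries out the first step of prostaglandin inactivation. The probe used in the fit read 0.11, -0.06 and -2.16 on the AOM/DSS arrays, 1.37, 1.47 and 1.70 on the AOM arrays, 2.63, 1.72 and 2.73 on the DSS arrays, and 3.94, 3.54 and 3.09 on the control arrays. The 4 groups did not overlap, with AOM/DSS lowest, then AOM, then DSS, then control, although AOM replicate 3 (1.70) and DSS replicate 2 (1.72) nearly met. AOM/DSS neoplasms were 18.7-fold below control (log2 difference -4.22 ± 0.54, SE, n = 3 each, limma adjusted p = 0.00032). They were 4.64-fold below AOM (-2.21, limma adjusted p = 0.013) and 8.34-fold below DSS (-3.06, limma adjusted p = 0.00283). AOM tissue was 4.03-fold below control (-2.01, limma adjusted p = 0.0207).

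The neighbours DSS and control in that order differed by -1.16 (95% interval -2.35 to 0.02, limma adjusted p = 0.244), and DSS and AOM by 0.85 (-0.34 to 2.03, limma adjusted p = 0.467), so neither of those steps passed the test. The second Hpgd probe gave -4.04 for AOM/DSS against control and -2.04 for AOM against control. AOM/DSS replicate 3 was the lowest array by 2.10; without it the differences were -3.50 from control and -1.49 from AOM, and both remained past the threshold. The fall in AOM/DSS against control was called in all alternatives run that tested the gene, including -3.79 without control replicates 1 and 2 (limma adjusted p = 0.025). On the slide shared with the controls, AOM/DSS replicate 3 differed from them by -5.68, and on the slide shared with AOM, AOM/DSS replicates 1 and 2 differed from the 2 AOM arrays by -1.39. The slide block ended the call against DSS (-2.05, limma adjusted p = 0.099), and normexp that against AOM (-1.97, limma adjusted p = 0.052).

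Slco2a1, which carries prostaglandins into the cell, followed the same order. It read -0.30, 0.05 and -0.17 in AOM/DSS, 3.15, 2.02 and 2.44 in AOM, 3.09, 3.31 and 3.63 in DSS, and 5.05, 4.11 and 3.47 in control. The AOM/DSS arrays were tightly grouped and at least 1.98 log2 units under every other array, while AOM and DSS overlapped, as did DSS and control. AOM/DSS was 20.4-fold below control (-4.35 ± 0.39, SE, n = 3 each, limma adjusted p = 5.42e-05), 6.42-fold below AOM (-2.68, limma adjusted p = 0.00227) and 11.2-fold below DSS (-3.49, limma adjusted p = 0.000344). AOM was 3.19-fold below control (-1.67, limma adjusted p = 0.0145), and DSS differed from control by -0.87 (95% interval -1.74 to 0.00, limma adjusted p = 0.238). The AOM/DSS differences from control and from AOM held under each alternative that was run, with -4.39 on the slide shared with the controls and -2.71 on the slide shared with AOM. Against DSS, with which AOM/DSS shared no slide, the slide block gave -3.61 at a limma adjusted p of 0.059.

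Ptger3 encodes EP3, a prostaglandin E2 receptor that lowers cyclic AMP. Its probe read -4.48, -6.03 and -5.01 in AOM/DSS, -2.51, -3.47 and -2.87 in AOM, -2.41, -2.76 and -2.55 in DSS, and -1.06, -1.08 and -1.48 in control. Every AOM/DSS array lay below every other array and every control array above every other array, with AOM and DSS overlapping between them. It was well above background on 1 of 3 AOM/DSS arrays and on all 9 others. AOM/DSS was 15.6-fold below control (-3.96 ± 0.38, SE, n = 3 each, limma adjusted p = 6.91e-05), 4.66-fold below AOM (-2.22, limma adjusted p = 0.00396) and 6.05-fold below DSS (-2.60, limma adjusted p = 0.00112). Since 2 AOM/DSS arrays were not well above background, the sizes are less certain than for Hpgd and Slco2a1. AOM was 3.35-fold below control (-1.74, limma adjusted p = 0.0113).

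In DSS the Ptger3 difference from control was -1.37 (95% interval -2.20 to -0.54), with no overlap between the groups and a limma adjusted p of 0.128. It was -1.58 without control replicate 3 and DSS replicate 1 (limma adjusted p = 0.045), and -1.45 without DSS replicate 1 alone (limma adjusted p = 0.048). The second Ptger3 probe failed the filter. Its 2 usable AOM/DSS readings, -7.50 and -7.16, were the lowest and its 3 control readings, -3.86, -3.84 and -3.73, the highest; AOM/DSS replicate 1 was flagged as an outlier spot and left out. With normexp the AOM/DSS difference from AOM became -1.23 (limma adjusted p = 0.10).

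The calls of AOM against control for Hpgd, Slco2a1, Ptger3 and Ptges were each lost under 3 alternatives: normexp, the slide block and the removal of control replicates 1 and 2. Directions did not change. Without those controls the differences were -1.58 for Hpgd, -0.93 for Slco2a1 and -1.47 for Ptger3 (limma adjusted p = 0.28, 0.25 and 0.20). With the slide block they were -4.29, -1.67 and -1.54 (limma adjusted p = 0.12, 0.31 and 0.32). Calls were lost across all genes as well, since 9.83% were called in this comparison with normexp, 0.0211% with the slide block and 0.0792% without those controls. Single omissions also ended the Hpgd call (AOM replicate 2, control replicate 1 or control replicate 2, limma adjusted p = 0.056 to 0.072) and the Slco2a1 call (AOM replicate 2, limma adjusted p = 0.058). AOM and control shared no slide, so slide and group can only be compared through the other groups.

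Absorptive colonocytes, the surface cells that take up salt and water, are a known site of Hpgd expression. The mean log2 signal of 9 markers of these cells was 1.95, 1.92 and 0.71 on the AOM/DSS arrays, 4.85, 4.25 and 4.28 on the AOM arrays, 5.05, 5.35 and 5.45 on the DSS arrays, and 6.04, 5.37 and 5.14 on the control arrays. The AOM/DSS arrays were thus lowest and AOM/DSS replicate 3 lowest of all, as for Hpgd. Slco2a1 was instead lowest on AOM/DSS replicate 1 (-0.30) and Ptger3 on AOM/DSS replicate 2 (-6.03). All 9 markers were well above background on 11 arrays, and 7 of 9 on AOM/DSS replicate 3. In AOM/DSS against control 6 of 9 fell and none rose, with a median of -3.54; in AOM 3 fell, with a median of -0.75; in DSS 1 fell, with a median of -0.07. Goblet cells are the mucus-secreting cells of the colon. All 8 of their markers fell in AOM/DSS, with a median of -3.66, and their mean log2 signal was 5.30, 4.22 and 2.52 on the AOM/DSS arrays, 6.75 to 7.57 in AOM, 7.04 to 8.04 in DSS and 7.50 to 8.19 in control. AOM/DSS replicate 3 was again lowest. None of the 8 was called in AOM or DSS. In the epithelium list 8 of 10 were lower in AOM/DSS, with a median of -1.08. Of all genes tested, 17.5% were called lower in AOM/DSS, 17.6% in AOM and 0.164% in DSS, each against control. When control replicates 1 and 2 were left out, fewer markers of each list were called lower in AOM/DSS, as were fewer of all genes. The part of colonocyte and goblet cell content in the fall of Hpgd, Slco2a1 and Ptger3 was not tested.

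**Figure D3:**
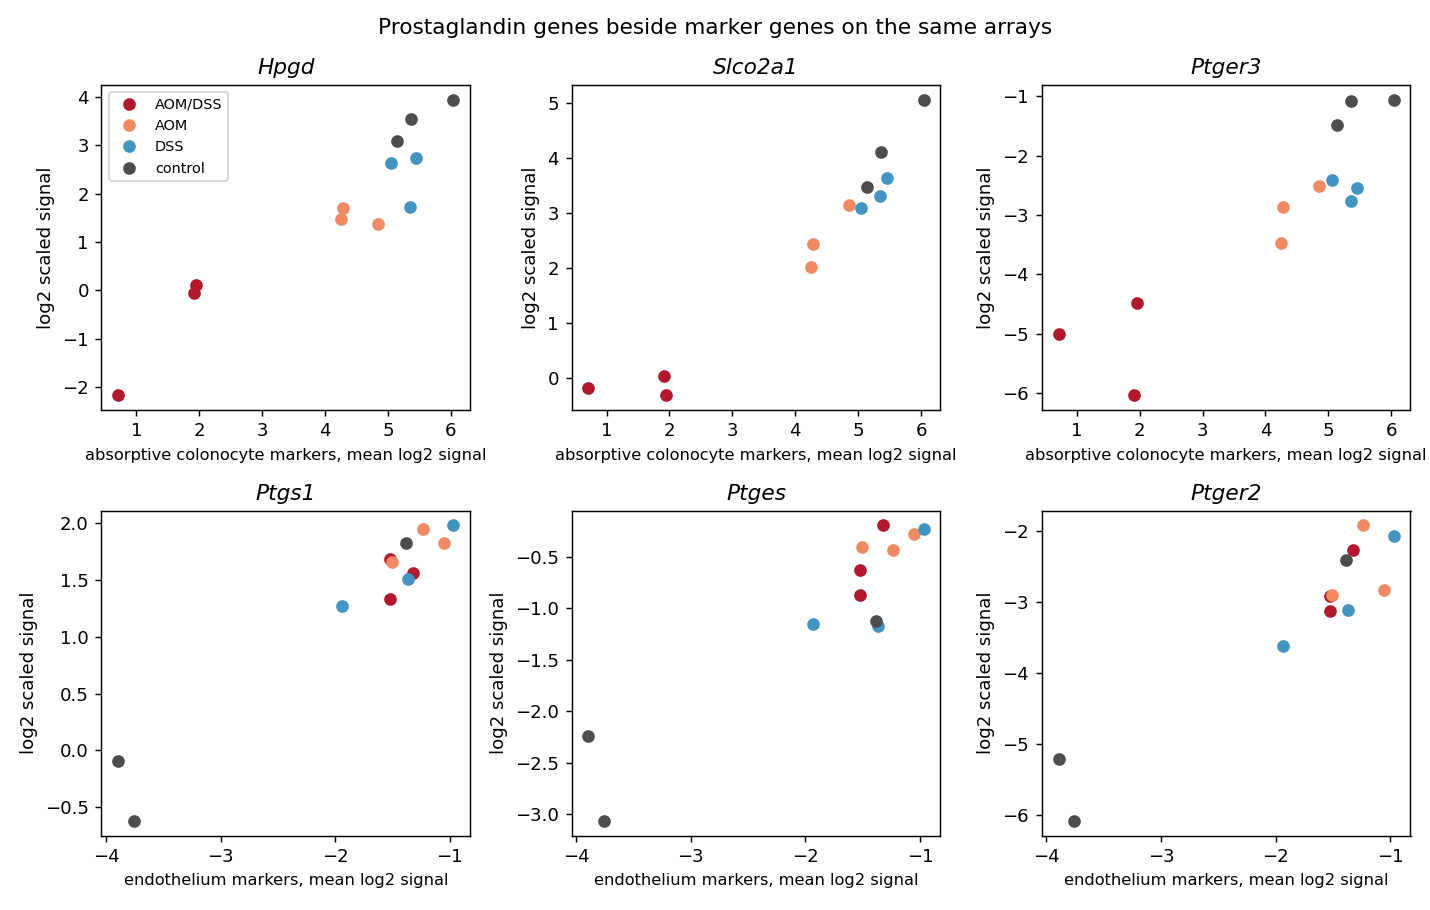
Log2 signal of 6 prostaglandin genes (vertical axes) against the mean log2 signal of cell type markers on the same array (horizontal axes), 12 arrays coloured by group. Hpgd, Slco2a1 and Ptger3 are set against 9 absorptive colonocyte markers, and Ptgs1, Ptges and Ptger2 against 8 endothelial markers, where 2 control arrays lie apart at the low end.

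Ptger2 encodes EP2, a receptor that raises cyclic AMP. It read -2.91, -3.13 and -2.28 in AOM/DSS, -1.93, -2.83 and -2.91 in AOM, -3.12, -2.08 and -3.62 in DSS, and -5.22, -6.09 and -2.41 in control. Control replicates 1 and 2 were at least 1.60 log2 units under every other array and were not well above background, while control replicate 3 lay among the treated arrays. The differences from control were 1.80 ± 0.79 in AOM/DSS (limma adjusted p = 0.102), 2.02 in AOM (limma adjusted p = 0.0711) and 1.63 in DSS (limma adjusted p = 0.260), so none was called. Without control replicate 3 all 3 were called, at 2.88, 3.1 and 2.71, and without control replicates 1 and 2 they were -0.36, -0.14 and -0.53.

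Ptger4 encodes EP4, the other receptor for prostaglandin E2 that raises cyclic AMP. It read 0.01, -0.02 and -0.37 in AOM/DSS, -0.37, -0.26 and -0.18 in AOM, -0.52, 0.15 and -0.11 in DSS, and -0.45, 0.07 and -0.24 in control. All 12 arrays lay within 0.67 of each other and all 4 groups overlapped. The AOM/DSS difference from control was 0.08 (95% interval -0.42 to 0.59), and limma's moderated F test over the 4 groups gave an adjusted p of 0.934. The interval leaves room for a change of up to 1.5-fold.

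**Figure D4:**
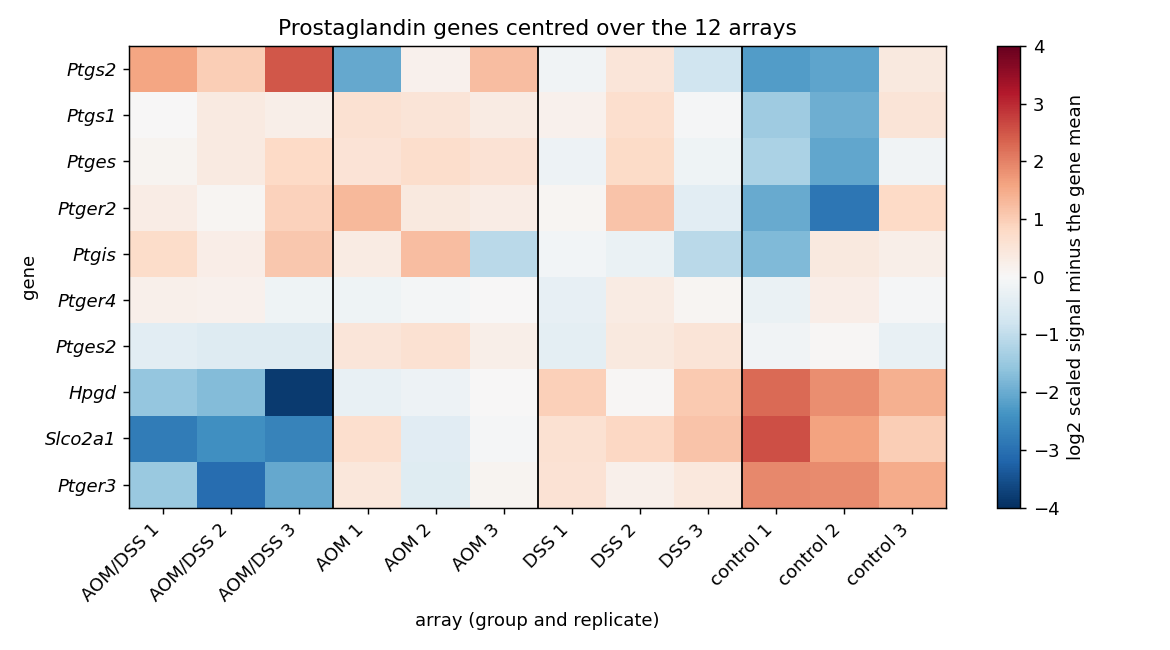
Log2 signal of the 10 genes (rows) on each of the 12 arrays (columns, grouped as AOM/DSS, AOM, DSS and control), each row centred on its own mean over the arrays. Hpgd, Slco2a1 and Ptger3 are low in AOM/DSS and high in control, whereas Ptgs2 has its highest group mean in AOM/DSS. Control replicates 1 and 2 are low for Ptgs1, Ptgs2, Ptges and Ptger2.

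By the F test, 5 of the 10 genes differed among the 4 groups (Ptges, Ptges2, Hpgd, Slco2a1 and Ptger3), where 52.6% of all genes did. Hpgd and Slco2a1 correlated at r = 0.919 over the 12 arrays, Slco2a1 and Ptger3 at r = 0.939, and Hpgd and Ptger3 at r = 0.898, while Ptgs2 and Slco2a1 gave r = -0.817. Among all named genes the patterns most like Slco2a1 were those of Pttg1ip, Dhrs11 and Plcd1 (Pearson r = 0.995 each, 12 arrays). Those most like Hpgd were Rapgefl1 and Sspo (r = 0.982 each) and Slc26a3, a chloride exchanger of colonocytes (r = 0.979). Ptger3 was most like Klk1b16 (r = 0.986), Serpina9 (r = 0.985) and Cyp3a13 (r = 0.982). Ptgs1 was most like Axl and Enah (r = 0.989 each) and Adamts2 (r = 0.987), and Ptger2 was most like Axl (r = 0.981), Cd200 (r = 0.979) and P2ry13 (r = 0.974). Ptges was most like Efemp2 (r = 0.981), Fcer1g (r = 0.980) and the thromboxane synthase Tbxas1 (r = 0.978), and Ptges2 like Prx (r = 0.992), H1f0 (r = 0.988) and Drap1 (r = 0.978). For Ptgs2 the closest were Rab23 (r = 0.947), Ik (r = 0.941) and Hspa4 (r = 0.940). Ptgis and Ptger4 had no gene above r = 0.894 and 0.844.

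The remaining prostanoid genes were taken from 4 lists holding 30 genes, of which 26 were on the array and 23 could be tested. In AOM/DSS against control 6 rose, 9 fell and 8 did not pass, with a median of 0.01, where 34.7% of all genes were called, 17.3% higher and 17.5% lower. In AOM 6 rose, 2 fell and 15 did not pass, where 32.4% of all genes were called. In DSS none of the 23 was called, with 0.327% of all genes called. The removal of control replicates 1 and 2 left 3 higher and 4 lower in AOM/DSS, with 8.45% of all genes called, and none was called in AOM. With the slide block 2 were higher and 4 lower in AOM/DSS, with 11.7% of all genes called, and none was called in AOM. With normexp 3 were higher and 6 lower in AOM/DSS, with 14.5% of all genes called, and 1 was higher and 1 lower in AOM. The AOM/DSS calls of Abcc4, Akr1b7, Pla2g5, Pla2g10 and Pla2g4f held under all 3 of these alternatives and without control replicate 3 and DSS replicate 1.

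Phospholipases A2 release the arachidonate from which prostaglandins are made. Of 10 tested in AOM/DSS against control, 2 rose and 4 fell, with a median of -0.27. Pla2g12a rose by 1.81 (limma adjusted p = 0.0018) and Pla2g6 by 0.88 (limma adjusted p = 0.0312), and both rose in AOM too, by 1.25 and 0.91. The Pla2g6 calls were lost with normexp, at 0.10 in AOM/DSS and 0.17 in AOM (limma adjusted p = 0.87 and 0.76). They were also lost with the slide block, at 0.26 and 0.06 (limma adjusted p = 0.62 and 0.95). Pla2g12a stayed called with normexp, at 1.70 and 1.10, but not with the slide block, at 1.58 and 0.92 (limma adjusted p = 0.069 and 0.42). The secreted enzymes Pla2g5, Pla2g10 and Pla2g12b differed by -2.44, -2.10 and -2.25, and the cytosolic Pla2g4f by -2.04 (limma adjusted p between 0.000135 and 0.0118). Pla2g12b was uneven in AOM/DSS, at -2.95, -3.44 and -0.89. Its call held with normexp (-1.75, limma adjusted p = 0.025) but not with the slide block (-0.71, limma adjusted p = 0.38). Pla2g5 read 0.41, 0.38 and -0.26 on the AOM/DSS arrays, against 2.62, 2.47 and 2.78 on the control arrays. None of those 4 was called in AOM against control, and Pla2g5 was also lower in AOM/DSS than in AOM (-2.27, limma adjusted p = 0.00083). Pla2g4a, the enzyme most often linked to prostaglandin release, differed from control by 0.14 (95% interval -0.75 to 1.03).

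Among 8 other synthases and reductases 3 rose and 3 fell. Ptgds, a prostaglandin D synthase, read -1.67, -0.69 and -1.94 in AOM/DSS, -2.77, -2.30 and -2.45 in AOM, -3.99, -2.69 and -4.07 in DSS, and -4.68, -5.12 and -5.13 in control. No control array was well above background for it, so its level exceeded that of control at least 5.66-fold in AOM/DSS and at least 2.69-fold in AOM (limma adjusted p = 0.000186 and 0.00562). With normexp the fitted Ptgds differences were 0.32 in AOM/DSS and -0.34 in AOM (limma adjusted p = 0.75 and 0.71). Hpgds, the other prostaglandin D synthase, differed by 0.01 in AOM/DSS and by -1.90 in AOM against control (limma adjusted p = 0.994 and 0.0206). Tbxas1, the thromboxane synthase, read -0.81, -0.66 and -0.14 in AOM/DSS, -0.02, -0.25 and -0.15 in AOM, -0.99, -0.42 and -1.19 in DSS, and -2.87, -4.12 and -0.75 in control. Control replicate 3 lay among the AOM/DSS and DSS arrays, and control replicates 1 and 2 lay below all others. The difference from control was 2.04 in AOM/DSS and 2.45 in AOM (limma adjusted p = 0.0328 and 0.0206). It was 0.21 and 0.61 without control replicates 1 and 2 (limma adjusted p = 0.77 and 0.35), and without control replicate 3 and DSS replicate 1 it was 2.96 and 3.36 (limma adjusted p = 0.00075 and 0.00073). Ptges3, a cytosolic prostaglandin E synthase and chaperone partner, was higher by 0.92 in AOM/DSS (limma adjusted p = 0.0228). Akr1b7 and Akr1b3, reductases that can form prostaglandin F2 alpha, and Prxl2b, a prostamide synthase, differed by -2.63, -0.75 and -0.69 in AOM/DSS (limma adjusted p = 9.86e-05, 0.0473 and 0.0335). The calls of Akr1b3 and Prxl2b were lost with normexp, at -0.12 and -0.17 (limma adjusted p = 0.85 and 0.75). With the slide block they were lost too, at -0.42 and -0.55 (limma adjusted p = 0.48 and 0.32).

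Abcc4 is a pump that exports prostaglandins and other organic anions. It read 3.32, 2.83 and 2.84 in AOM/DSS, 0.39, 2.09 and 1.96 in AOM, -0.04, 0.12 and -0.34 in DSS, and -1.29, -0.15 and 0.34 in control. AOM/DSS arrays lay above all others, AOM arrays above all DSS and control arrays, and DSS within the control range. Abcc4 was 10.3-fold higher in AOM/DSS (3.36 ± 0.49, SE, n = 3 each, limma adjusted p = 0.000683) and 3.59-fold higher in AOM (1.84, limma adjusted p = 0.0203) than in control. The reductase Ptgr2, which acts after Hpgd, differed by -0.74 in AOM/DSS and -0.72 in AOM (limma adjusted p = 0.0122 and 0.0199), and Ptgr1, with a like role, by 0.95 and 1.15 (limma adjusted p = 0.0886 and 0.0489). Of 5 other prostanoid receptors on the array 2 could be tested. Ptgdr2 differed by -1.35 in AOM/DSS against control (limma adjusted p = 0.0106), and the thromboxane receptor Tbxa2r by -2.64 in AOM/DSS against AOM (limma adjusted p = 0.0389).

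**Figure D5:**
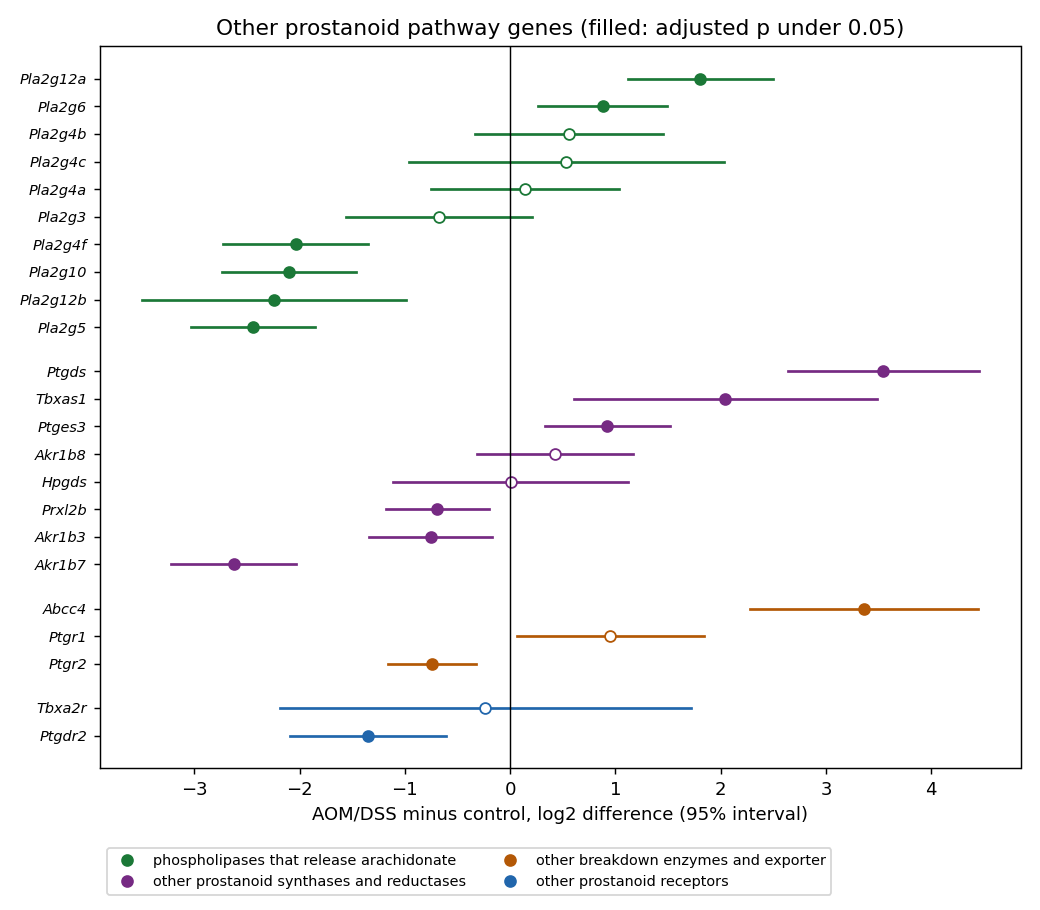
Log2 difference of AOM/DSS from control (horizontal axis) with 95% intervals for the 23 other prostanoid pathway genes tested, grouped by list (3 arrays a group). Filled points passed a limma adjusted p of 0.05. Ptgds and Abcc4 are farthest to the right, and Akr1b7 and Pla2g5 farthest to the left.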

How the data were processed

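Colon RNA from 12 samples, 3 in each of 4 groups, was labelled with Cy3 and hybridised to one-colour Agilent arrays, per the labels' protocols. The deposited scanner files hold intensity values from Agilent Feature Extraction, whose version is 10.7.3.1 in the headers (10.7 per the submitters' processing notes). The processed signal is intensity after background and spatial detrending, per the file headers. The authors' deposited series matrix, used as an alternative, gives log2 values, and its columns differ by at most 0.0979 once sorted. The sources used here do not name its software.

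The 75th percentile of log2 processed signal was subtracted array by array. Outlier-flagged spots were left out, spots of a probe were averaged, and probes had to be well above background on all 3 arrays in 1 or more groups. The kept probe with the highest mean stood for its gene. Of 41174 non-control probes, 27198 carried a symbol through their RefSeq accession. Group means were fitted with limma 3.58.1 in R 4.3.3 (lmFit, eBayes, 8 residual degrees of freedom), with Benjamini-Hochberg adjustment across the 18947 genes. Called means an adjusted p under 0.05. "At least" folds set each array of a group not above background at the signal of its dimmest passing probe, or at the probe's own signal where higher. The script was tested on simulated data. The number of arrays limits the precision.

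The genes, gene lists and marker lists were chosen with earlier results of these data known. All 10 genes are named; from the other lists called members are named, and for each gene the 3 named genes with the highest Pearson correlation. Slides, read from the file headers, joined replicates 1 and 2 of AOM/DSS and of AOM, the 3 DSS arrays and AOM replicate 3, and the 3 controls and AOM/DSS replicate 3. Alternatives were normexp, median scaling, quantile normalization, the series matrix, 2 filters, 2 probe rules, slide and replicate blocks, and omissions of arrays. The omissions of control replicate 3 with DSS replicate 1, and of control replicates 1 and 2, were chosen after seeing the data, as was their use on the other lists.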

Additional observations from a re-analysis of the deposited data

How the results depend on the processing

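Of the 17 differences called in the 6 comparisons, every one kept its direction under each alternative run except that of Ptgs1 in AOM against control, which was -0.018 without control replicates 1 and 2. Over single omissions, 176 of 204 values of those differences stayed past the threshold and 28 did not. Over the other alternatives 150 of 182 stayed, 31 did not, and 1 turned. The cause of each change was not tested. Median scaling moved the median of all genes from 0.03 to -0.12 in AOM/DSS against control and from -0.04 to -0.36 in AOM/DSS against AOM. The main fit did not pair samples by replicate number. Over 18 same-numbered pairs the correlation of deviations ran from -0.27 to 0.25, with 8 over 0.1. Over differently numbered pairs it ran from -0.26 to 0.38. With slides shared across groups, these correlations cannot settle whether the numbers pair the samples. With the replicate block 5, 4, 0, 4, 3 and 0 genes were called in the 6 comparisons, and Ptgs1 in AOM against control was the call lost (1.44, limma adjusted p = 0.066). Probes near background limit Ptgs2, Ptgis, Ptger2 and Ptger3, which had 4, 7, 3 and 2 arrays under 50 intensity units, the normexp offset.

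Counts of called genes among the 10 changed as follows. For AOM/DSS against control (5 called), normexp, the slide block, the filter on all 12 arrays (6 genes tested) and the omission of control replicates 1 and 2 each gave 3. For AOM against control (5), normexp, the slide block and that omission each gave 0, while the share of all genes called was 9.83%, 0.0211% and 0.0792%, against 32.4% as reported. For AOM/DSS against control those 3 shares were 14.5%, 11.7% and 8.45%, against 34.7%. For AOM/DSS against AOM (4), normexp gave 1; for AOM/DSS against DSS (3), the slide block gave 0; for DSS against control (0), omitting control replicate 3 and DSS replicate 1 gave 4. The shares of all genes there were 6.6% against 37.2%, 2.31% against 35.9%, and 22.6% against 0.327%. For the F test (5, where 52.6% of all genes passed), normexp and the slide block each gave 3, and omitting control replicate 3 and DSS replicate 1 gave 8. The share of all genes passing the F test under these alternatives is not given here, so these counts cannot be set against it. Single omissions gave 3 to 7 for AOM/DSS against control, 1 to 6 for AOM, 0 to 3 for DSS, 3 to 4 for AOM/DSS against AOM, 3 to 4 against DSS, 0 to 0 for DSS against AOM and 3 to 8 for the F test. The fewest came without AOM replicate 2 for AOM against control (1), and the most without control replicate 3 (7, 6, 3 and 8). The share of all genes moved as well. It was 10.4% for AOM against control without AOM replicate 2. Without control replicate 3 it was 36.7%, 34.2% and 7.04% for AOM/DSS, AOM and DSS against control.

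Differences that turned were, apart from the one above, uncalled in the data as reported. With normexp they were, against control, 0.13 for Ptges2, -1.16 for Ptgis, -0.93 for Ptger2 and -0.056 for Ptger4 in AOM/DSS; -0.81 for Ptgs2, -1.0 for Ptgis and -0.63 for Ptger2 in AOM; and -0.35 for Ptgs2, -0.36 for Ptger2 and -0.057 for Ptger4 in DSS. Also with normexp, AOM/DSS against DSS gave 0.24 for Ptgs1, -0.76 for Ptgis and -0.58 for Ptger2, AOM/DSS against AOM -0.16 for Ptgis, and DSS against AOM 0.60 for Ptgis and 0.27 for Ptger2. Without control replicates 1 and 2, Ptgs1 was -0.30 in AOM/DSS and -0.24 in DSS, Ptgs2 -0.61 in AOM and -0.54 in DSS, Ptgis -0.084 in AOM, and Ptger2 -0.36, -0.14 and -0.53 in AOM/DSS, AOM and DSS. With the slide block, DSS against AOM gave -1.40 for Ptgs2 and 0.59 for Ptgis, DSS against control 2.32 for Ptgis and -0.45 for Ptger4, AOM/DSS against AOM -0.28 for Ptgis, AOM/DSS against DSS -0.87 for Ptgis and -0.61 for Ptger2, and AOM/DSS against control -0.16 for Ptger4. With median scaling, Ptgs2 was -0.033 in DSS against AOM, Ptger2 -0.060 in AOM/DSS against DSS, and Ptger4 -0.070, 0.11, -0.18 and -0.19 in AOM/DSS and AOM against control and AOM/DSS against AOM and DSS. Quantile normalization and the series matrix gave 0.094 and 0.094 for Ptgs1 and -0.038 and -0.038 for Ptger2 in AOM/DSS against DSS, and 0.19 and 0.19 for Ptgis in DSS against control. The mean of a gene's probes gave -0.19 for Ptgs2 in DSS against AOM. Without control replicate 3 and DSS replicate 1, Ptges2 was 0.010 in DSS against AOM, Ptgis 0.024 in DSS against control and Ptger4 -0.14 in AOM/DSS against DSS.

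Single omissions turned further uncalled differences. In AOM/DSS against DSS the ranges were -0.22 to 0.14 for Ptgs1, -0.17 to 0.60 for Ptger2 and -0.14 to 0.19 for Ptger4; in AOM/DSS against AOM, -0.088 to 1.07 for Ptgis and -0.47 to 0.10 for Ptger2. In DSS against AOM they were -0.86 to 0.79 for Ptgs2, -0.44 to 0.010 for Ptges2 and -0.049 to 0.29 for Ptger4. Against control they were -0.16 to 1.16 for Ptgis in AOM, -0.80 to 0.28 for Ptgis in DSS, and for Ptger4 -0.039 to 0.22 in AOM/DSS, -0.18 to 0.077 in AOM and -0.11 to 0.22 in DSS.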

Other observations

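The lipoxygenase branch, which makes leukotrienes and hydroxy fatty acids from the same arachidonate, was described with 10 genes, all tested. In AOM/DSS against control 3 rose and 3 fell, where 34.7% of all genes were called, with a median of 0.81 against 0.03 over all genes. In AOM 4 rose and 1 fell, where 32.4% of all genes were called, with a median of 0.76 against -0.01. Fewer of the 10 were called in either comparison when control replicates 1 and 2 were left out, as were fewer of all genes. Alox12, the platelet-type lipoxygenase, read 1.84, 2.31 and 2.79 on the AOM/DSS arrays, -2.96, 1.96 and 2.00 on the AOM arrays, -3.46, -2.78 and -2.27 on the DSS arrays, and -5.80, -5.32 and -3.59 on the control arrays. AOM replicate 1 lay with the DSS arrays and the other AOM arrays with the neoplasms. The difference from control was 7.22 ± 1.13 in AOM/DSS and 5.24 in AOM (limma adjusted p = 0.00106 and 0.0114), with 1 of 3 control arrays well above background. With normexp it was 3.73 and 2.06 (limma adjusted p = 0.024 and 0.14). With the slide block it was 7.7 and 5.12 (limma adjusted p = 0.02 and 0.28). The Alox12 call in AOM was thus lost under both. Alox15 read 0.59, -1.37 and -0.26 in AOM/DSS, -4.27, -2.70 and -2.93 in AOM, -5.67, -4.55 and -5.84 in DSS, and -5.76, -5.93 and -4.66 in control. It was well above background on every AOM/DSS and AOM array and on no DSS or control array, which put it at least 12-fold higher in AOM/DSS than in control (limma adjusted p = 0.000198), at least 13.4-fold higher than in DSS (limma adjusted p = 0.000432), and at least 1.55-fold higher in AOM than in control (limma adjusted p = 0.0232). With normexp the fitted Alox15 differences from control were 1.23 in AOM/DSS and -0.65 in AOM (limma adjusted p = 0.24 and 0.51). Without control replicates 1 and 2 Alox12 differed by 5.91 in AOM/DSS (limma adjusted p = 0.06) and Alox15 by 4.31 (limma adjusted p = 0.019).

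The leukotriene genes did not move one way. Lta4h, which makes leukotriene B4, was higher by 0.89 in AOM/DSS and 0.78 in AOM against control (limma adjusted p = 0.0122 and 0.0276). Both Lta4h calls were lost with normexp, at 0.38 and 0.30 (limma adjusted p = 0.29 and 0.38). The slide block also ended them, at 0.82 and 0.50 (limma adjusted p = 0.13 and 0.50). Alox5, the first enzyme of leukotriene synthesis, Ltc4s, which makes leukotriene C4, and Alox12b, the skin-type lipoxygenase, differed by -1.10, -1.69 and -1.15 in AOM/DSS (limma adjusted p = 0.0409, 0.00323 and 0.00315). With normexp they stayed called. With the slide block Ltc4s stayed called (-1.53, limma adjusted p = 0.047). Alox5 and Alox12b did not, at -1.03 and -0.93 (limma adjusted p = 0.26 and 0.095). Without control replicate 3 and DSS replicate 1 Alox5 was not called either (-0.85, limma adjusted p = 0.085). Alox5ap, the partner protein of Alox5, was higher by 1.13 in AOM (limma adjusted p = 0.0173), and Alox12b differed by -0.88 there (limma adjusted p = 0.0173). Both of these AOM calls were lost with the slide block, at 1.37 and -0.66 (limma adjusted p = 0.29 and 0.39). Normexp ended that of Alox12b (-1.11, limma adjusted p = 0.11) but not that of Alox5ap (1.17, limma adjusted p = 0.027). None of the 10 was called in DSS against control. Neutrophil markers, summed over 8 genes as linear levels, reached 64.4 to 206 on the AOM/DSS arrays, 8.62 to 20.5 on the AOM arrays and 1.97 to 21.4 on the DSS arrays, against 0.411 to 0.865 on the control arrays. They were highest in AOM/DSS, where Alox12, Alox15 and Lta4h were higher than in control and Alox5, Ltc4s and Alox12b lower; their part in these differences was not tested.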
